A study of Mus musculus with 2 samples.

Results

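The miR-99/miR-100 and miR-125 families were examined in LLC-derived exosomes. LLC is a mouse Lewis lung carcinoma cell line, and exosomes are small membrane vesicles that cells release into their medium. Of the 1881 mouse miRNAs on the array, 5 were taken by name as the guide strands (5p) of these families: mmu-miR-99a-5p, mmu-miR-99b-5p, mmu-miR-100-5p, mmu-miR-125a-5p and mmu-miR-125b-5p, written from here without the species prefix. The rule that picks them is their names and uses no measured value, although it was set with earlier results of these data known. The study profiled the miRNAs of vesicles pelleted by ultracentrifugation from the supernatant of LLC cells, for which the labels name no treatment, kept in medium with exosome-free serum. RNA from 2 independent experiments was labelled with Cy3 and hybridized to 2 Agilent mouse miRNA arrays, referred to as replicate 1 and replicate 2. Both belong to the only group analysed here, so no difference between conditions could be tested and no p-value was computed. The sample labels describe a blood RNA kit, removal of globin messages and labelled cRNA, whereas the methods name a miRNA kit for the PCR of exosomal miRNA, and which preparation the arrays received is unknown here.

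A miRNA acts mainly through its seed, the bases 2 to 8 from its 5′ end, which pair with messenger RNAs and lower their translation and stability. The miR-125 guides are the mammalian relatives of lin-4, a developmental timing miRNA of the worm, and are known for repressing Lin28a and for their roles in blood stem cells and leukaemia. The miR-99/miR-100 guides are known for repressing Mtor and Igf1r, which drive growth. Hairpins of both families lie together with a let-7 hairpin in 3 clusters of the mouse genome, and each cluster can be transcribed as a long primary transcript from which the hairpins are cut one by one. The let-7 guides repress growth-promoting genes, and the RNA-binding protein LIN28 blocks their maturation from such transcripts.

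The mature guide sequences are shown from RefSeq (GRCm38.p6), 5′ to 3′ with the seed in capitals, because the families are defined by them and because near-identical guides bear on how probe signals are read.

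miR-99a-5p: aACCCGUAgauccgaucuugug
miR-100-5p: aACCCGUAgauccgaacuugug
miR-99b-5p: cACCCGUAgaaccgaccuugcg
miR-125a-5p: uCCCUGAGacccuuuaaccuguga
miR-125b-5p: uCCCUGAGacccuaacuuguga

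The 3 guides of the miR-99/miR-100 family shared the seed ACCCGUA, and both miR-125 guides shared CCCUGAG. Counted from 1 at the 5′ end, miR-100-5p differed from miR-99a-5p by a single substitution, U16A, and miR-99b-5p differed from miR-99a-5p by 4, A1C, U11A, U16C and U21C. The miR-125 guides were identical over their first 13 bases and had an edit distance of 3. The probe sequences were not used here, and how far 1 probe also binds a near-identical guide was not tested.

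All 5 guides matched the RefSeq miRNA table. On chromosome 16, Mir99a, Mirlet7c-1 and Mir125b-2 lay on the plus strand within 47408 bp, with miR-99a-5p at chr16:77598940-77598961 and miR-125b-5p at chr16:77646279-77646300, and no gene of the RefSeq table spanned the whole cluster. On chromosome 9, Mir100, Mirlet7a-2 and Mir125b-1 lay on the plus strand within 50578 bp inside Mir100hg, a long non-coding host gene, with miR-100-5p at chr9:41531437-41531458 and miR-125b-5p at chr9:41581940-41581961. On chromosome 17, Mir99b, Mirlet7e and Mir125a lay on the plus strand within 692 bp inside Spaca6, with miR-99b-5p at chr17:17830194-17830215 and miR-125a-5p at chr17:17830817-17830840. The same mature miR-125b-5p comes from the loci on chromosomes 9 and 16, so its signal cannot be told apart by locus.

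The array carried 30 spots for each miRNA, shared between its probes, and the members had 2 probes of 15 spots each. The deposited intensity of a spot has its background subtracted and can be below 0. Feature Extraction, the scanner software, called a probe detected where its summed signal was more than 3 times the error of that sum, and this call is used unless another is named. Of the 1881 miRNAs, 253 were called detected in replicate 1, 223 in replicate 2 and 216 on both arrays, which was 11.5%. Of the 1000 negative control spots, 986 in replicate 1 and 995 in replicate 2 were kept after outlier removal. Those kept had a median intensity of 0.619 in replicate 1 and 0.739 in replicate 2, and the highest was 9.45 and 9.35. There were 0 saturated spots.

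Both miR-125 guides were detected on both arrays, and none of the 3 miR-99/miR-100 guides was detected on either. That was 2 of 5 members beside 11.5% of all miRNAs, and a list of 5 with shared sequence allows no more than this description. For either miR-125 guide, the call rested on 1 of its 2 probes, and the second probe was not detected on either array.

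miR-125b-5p had the brightest probe of the members. That probe had a median spot intensity of 62.2 in replicate 1, with a lowest spot of 51.2 and a highest of 70.8. In replicate 2, the median was 47.5, with spots from 40.9 to 54.4. All 15 spots on either array lay above the highest negative control spot and were well above background by the software's own flag, and the spots of the 2 arrays overlapped in part. The mean intensity was 62.2 ± 5.39 (SD over 15 spots of 1 array) in replicate 1 and 47.8 ± 4.19 in replicate 2, where the SD is technical. The total probe signal was 8.98 times its error in replicate 1 and 8.41 times in replicate 2. This probe was brighter than 98.0% of the 4415 probes on either array, as a rank of signals that also depends on how well each probe binds and is not a rank of amounts.

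The second miR-125b-5p probe was dim, and it differed more between the arrays. Its median spot intensity was 7.02 in replicate 1, with spots from 2.75 to 10.6. On the second array, the median was 1.20, with spots from -0.956 to 8.38. The total signal was 2.16 times its error in replicate 1 and 0.571 times in replicate 2, both short of the limit of 3. In replicate 1, 12 of the 14 spots kept lay above the 95th percentile of the negative control spots, 4.73, whereas 2 of 14 did so in replicate 2, where that percentile was 5.23.

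miR-125a-5p, cut from the chromosome 17 cluster, gave fainter spots and was also detected on both arrays. Its brighter probe had a median spot intensity of 15.3 in replicate 1, with spots from 8.88 to 20.7. Replicate 2 had a median of 12.9, with spots from 6.67 to 19.5. The ranges of the 2 arrays overlapped over most of their width. The total signal was 4.49 times its error in replicate 1 and 3.70 times in replicate 2, and 14 and 11 of 15 spots, respectively, lay above the highest negative control spot. Spots flagged as well above background numbered 8 in replicate 1 and 3 in replicate 2. The second probe had medians of 1.64 and 1.44 and totals of 0.730 and 0.507 times the error, and 0 of its spots exceeded the highest negative control spot.

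**Figure D1:**
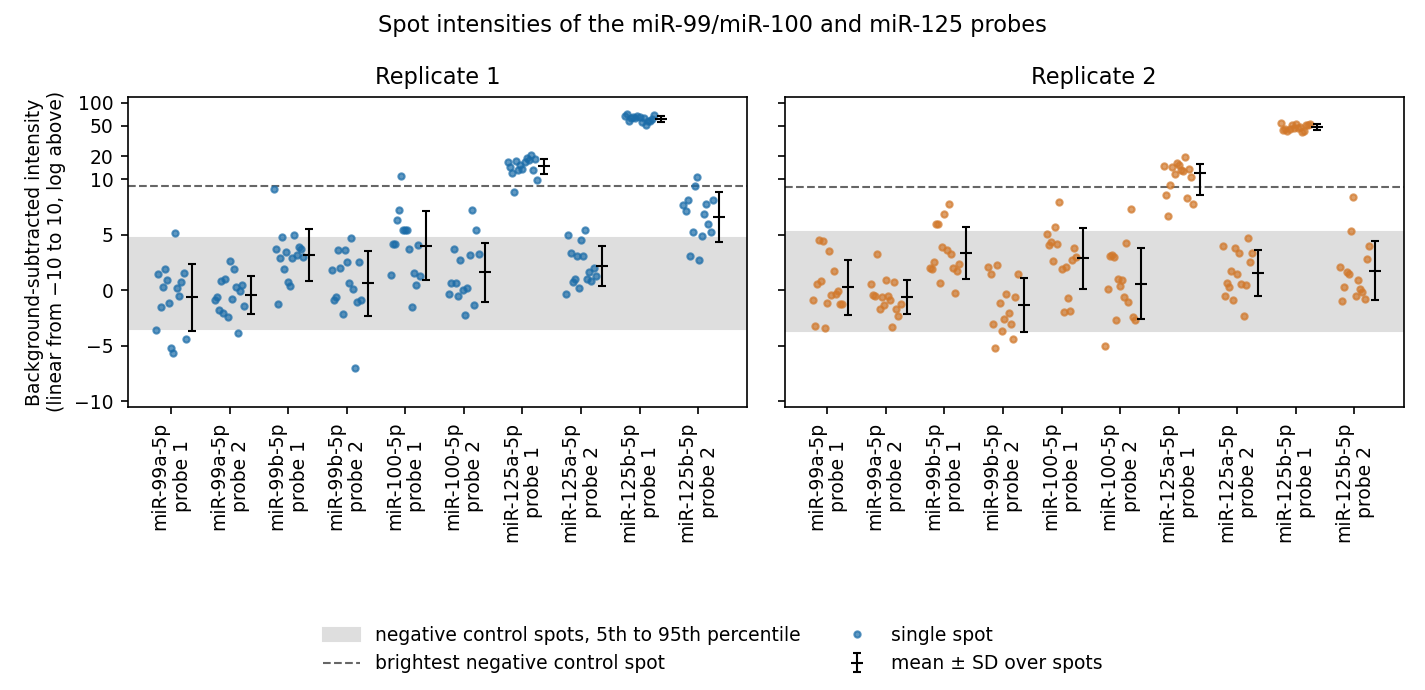
Background-subtracted intensity (y axis, linear from −10 to 10 and logarithmic above) of every spot kept for the 10 probes of the 5 members (x axis) in replicate 1 (left) and replicate 2 (right), with the mean ± SD over the spots beside each probe. Probe 1 of a pair has the higher total signal averaged over both arrays. The grey band is the 5th to 95th percentile of the negative control spots, and the dashed line is the brightest of them. Probe 1 of miR-125b-5p has medians of 62.2 and 47.5 and probe 1 of miR-125a-5p has 15.3 and 12.9, while the other 8 probes have medians of at most 7.02.

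The miR-99/miR-100 guides lay near the negative control spots. Their 6 probes had totals from -0.438 to 1.32 times the error over both arrays. For these probes the limit of detection, 3 times its error, was between 1.90 and 1.96 in units of total probe signal, so these guides had a signal under that bound and not a measured 0.

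miR-100-5p had the highest of these ratios. Its brighter probe had a median spot intensity of 4.17 in replicate 1, with spots from -1.54 to 11.0. In replicate 2, the median was 3.03, with spots from -1.94 to 7.93. The totals were 1.32 and 0.933 times the error, and 1 of 15 spots in replicate 1 and 0 in replicate 2 exceeded the highest negative control spot. Of the 15 spots, 10 in replicate 1 and 8 in replicate 2 were flagged as positive and significant against background, which is a looser criterion than detection. Its second probe had medians of 0.631 and 0.421 and totals of 0.532 and 0.193 times the error.

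miR-99b-5p, which shares its cluster with miR-125a-5p, had a median spot intensity of 3.16 at its brighter probe in replicate 1, with spots from -1.25 to 9.09. On the second array, the median was 2.52, with spots from -0.243 to 7.77. The totals were 1.05 and 1.09 times the error, and 0 spots exceeded the highest negative control spot on either array. Of the 15 spots of this probe, 8 in replicate 1 and 7 in replicate 2 were flagged as positive and significant against background. Its second probe had totals of 0.203 and -0.438 times the error.

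miR-99a-5p, which differs from miR-100-5p at a single base, had no total above 0.0830 times the error at either probe. Its probe placed first had a median of 0.226 in replicate 1, with spots from -5.63 to 5.18, and of -0.313 in replicate 2, with spots from -3.40 to 4.56. The other probe had medians of -0.577 and -0.620. The lowest of the 4 totals was -0.215 times the error, so the signal was centred near 0 on both arrays.

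The count of members depended on the call. With the well-above-background flag required for at least 50% of the spots of 1 probe on both arrays, miR-125b-5p alone passed, beside 7.07% of all miRNAs. When those spots had to be positive and significant, miR-100-5p passed along with both miR-125 guides, which made 3 of 5 beside 24.7% of all miRNAs. When every probe of a miRNA had to be detected on both arrays, 0 of 5 members passed, beside 7.5% of all miRNAs.

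For comparison between the arrays, intensities were scaled to the 75th percentile among 393 probes that passed on both, which was 50.2 intensity units in replicate 1 and 40.0 in replicate 2, and log2 was taken. On this scale, 0 is a signal at that percentile. The detected miR-125b-5p probe had a level of 0.28 ± 0.04 (SD, n = 2 arrays), from 0.30 in replicate 1 and 0.25 in replicate 2. The detected miR-125a-5p probe had -1.77 on both arrays. The differences, replicate 2 minus replicate 1, were -0.05 for miR-125b-5p and -0.01 for miR-125a-5p, beside a median difference of 0.26 over the 393 probes, which ranged from -0.59 at their 10th percentile to 0.62 at their 90th. Before scaling, the intensity in replicate 2 was 0.769 times that in replicate 1 for miR-125b-5p and 0.808 times for miR-125a-5p. For these detected probes, both differences were small against the spread of the array pair.

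The level of a whole miRNA, averaged over both probes, differed more between the arrays, and spots at or below 0 were set to a floor before the log2. The mean over 2 arrays was -2.84 ± 2.10 for miR-125b-5p and -4.24 ± 0.62 for miR-125a-5p. In replicate 2, 4 spots of miR-125b-5p and 3 of miR-125a-5p stood at the floor, against 0 and 1 in replicate 1. With spots averaged before the log2, the levels were -1.72 ± 0.58 and -3.16 ± 0.05. By either summary, the difference between the miR-125 guides also contains the unequal binding of their probes. The median level of the detected members was -3.54, beside -1.46 for all 216 detected miRNAs. Their median absolute difference between the arrays was 1.92, beside 0.35 for all 216, so by this summary the members differed more than most. Both member values include the undetected second probe of either guide. Alone, the detected probes stood at 0.28 for miR-125b-5p and -1.77 for miR-125a-5p. The medians over the 393 probes detected on both arrays were -1.29 in replicate 1 and -1.12 in replicate 2.

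The let-7 guides of the same clusters were then examined, since they can be cut from the same primary transcripts. They are printed with the family seed in capitals because each differs from the next by a single base.

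let-7c-5p: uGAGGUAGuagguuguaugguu
let-7a-5p: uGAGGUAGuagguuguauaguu
let-7e-5p: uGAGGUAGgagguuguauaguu

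Counted from the 5′ end, let-7a-5p differed from let-7c-5p by G19A, and let-7e-5p differed from let-7a-5p by U9G. All 3 were detected on both arrays, beside 11.5% of all miRNAs. let-7c-5p and let-7a-5p passed at both of their probes, and let-7e-5p passed at 1 of 2. let-7c-5p and let-7a-5p also come from hairpins elsewhere in the genome, so their signal is not that of these clusters alone. The RefSeq miRNA table placed let-7a-5p at Mirlet7a-1 on chromosome 13 and gave no position for it at Mirlet7a-2. Its place in the chromosome 9 cluster therefore rests on the position of the Mirlet7a-2 hairpin.

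In the chromosome 16 cluster, let-7c-5p and miR-125b-5p were detected and miR-99a-5p was not. The brighter let-7c-5p probe had a median spot intensity of 113.5 in replicate 1, with spots from 105.2 to 125.9. Replicate 2 had a median of 80.8, with spots from 73.2 to 94.1. The totals were 9.66 and 9.34 times the error. Its second probe had medians of 19.8 and 14.8 and totals of 5.56 and 4.34 times the error, so both probes were dimmer in replicate 2 before scaling, at 0.714 and 0.734 times their intensity in replicate 1.

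In the chromosome 9 cluster, let-7a-5p and miR-125b-5p were detected and miR-100-5p was not. The brighter let-7a-5p probe had a median spot intensity of 35.3 in replicate 1, with spots from 27.0 to 39.3. In replicate 2, the median was 39.4, with spots from 33.6 to 45.2. The totals were 7.54 and 7.84 times the error, and the second probe just passed the limit, with 3.01 and 3.40 times. In contrast to let-7c-5p, both probes were brighter in replicate 2 before scaling, at 1.12 and 1.16 times their intensity in replicate 1.

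In the chromosome 17 cluster, the smallest of the 3, let-7e-5p and miR-125a-5p were detected and miR-99b-5p was not. The brighter let-7e-5p probe had a median spot intensity of 11.7 in replicate 1, with spots from 7.83 to 15.7. On the second array, the median was 15.7, with spots from 10.9 to 23.4. The totals were 3.69 and 4.77 times the error, while the second probe had 0.492 and 1.60 times. In all 3 clusters, the detection call thus separated the miR-99/miR-100 guide from the let-7 and miR-125 guides, although miR-125b-5p counts in 2 of them. The other calls did not keep this pattern in all 3 clusters. With spots well above background, let-7c-5p, let-7a-5p and miR-125b-5p passed on both arrays, but let-7e-5p and miR-125a-5p did not. With positive and significant spots, miR-100-5p passed along with all 3 let-7 guides and both miR-125 guides. With every probe detected, let-7c-5p and let-7a-5p passed and no miR-125 guide did.

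**Figure D2:**
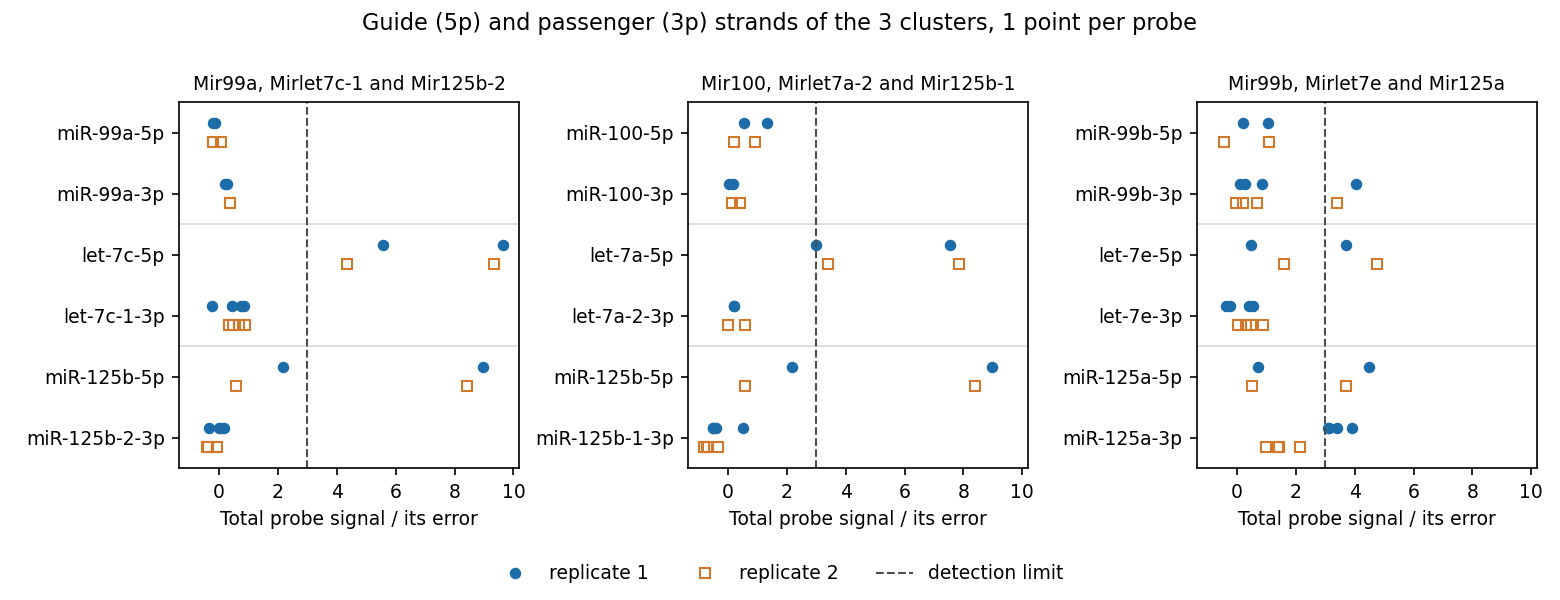
Total probe signal divided by its error (x axis, no unit) for each probe of the guide (5p) and passenger (3p) strands of the 3 clusters (y axis), with filled circles for replicate 1, open squares for replicate 2 and a dashed line at the detection limit of 3. The probes of miR-99a-5p, miR-99b-5p and miR-100-5p lie between -0.438 and 1.32, and miR-125b-5p, which comes from 2 clusters, is drawn in both.

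On the scaled log2 levels, the let-7 and miR-125 guides of a cluster did not always move alike between the arrays. For the chromosome 17 cluster, the difference, replicate 2 minus replicate 1, was 0.80 for the detected let-7e-5p probe and -0.01 for that of miR-125a-5p. For the let-7c-5p probes it was -0.16 and -0.14, and for the let-7a-5p probes it was 0.49 and 0.62. The difference of let-7e-5p exceeded that of 94.7% of the 393 probes, and that of miR-125a-5p exceeded 26.7%. A rise was not particular to the chromosome 17 cluster, since the let-7a-5p probes rose too. Both chromosome 17 probes were near the limit of 3, with totals of 3.69 and 4.77 times the error for let-7e-5p and 4.49 and 3.70 times for miR-125a-5p. With 1 array for each experiment, differences between experiments and between hybridizations cannot be told apart.

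**Figure D3:**
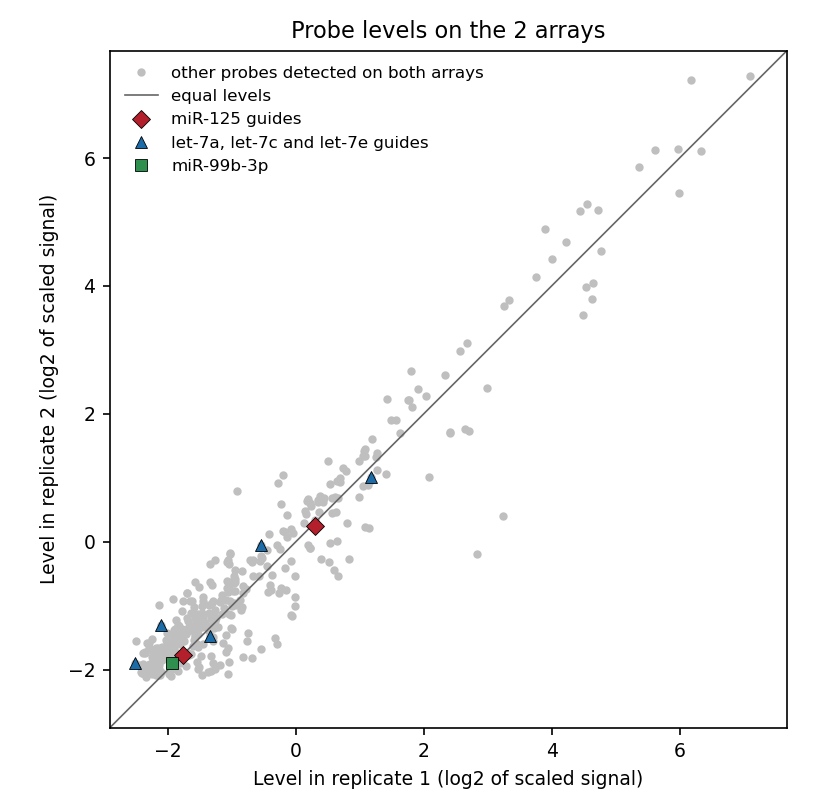
Level of each of the 393 probes detected on both arrays, as log2 of the signal over the 75th percentile of its array, in replicate 1 (x axis) and replicate 2 (y axis), with a line of equal levels. The miR-125b-5p probe (0.30 and 0.25) and the miR-125a-5p probe (-1.77 on both arrays) lie on the line, the let-7c-5p probes lie just under it, and the let-7a-5p and let-7e-5p probes lie above it.

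The passenger strands, the opposite arms of the same hairpins, are usually degraded while the guide is kept. Of the 9 passenger strands, 1 was detected on both arrays, beside 11.5% of all miRNAs. This was miR-99b-3p, whose guide miR-99b-5p was not detected. Its detected probe had a median spot intensity of 13.1 in replicate 1, with 7 spots from 10.5 to 15.9. Replicate 2 had a median of 11.8, with 7 spots from 6.44 to 14.0. The totals were 4.04 and 3.42 times the error, but the other 3 of its 4 probes had totals from -0.0301 to 0.840 times the error, so the call rested on a single probe. The detected strand is printed beside the passenger strand of Mir99a, with which it shares the bases in capitals.

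miR-99b-3p: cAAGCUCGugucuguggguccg
miR-99a-3p: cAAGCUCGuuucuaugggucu

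The miR-99a-3p probes had totals from 0.189 to 0.380 times the error and were not detected. miR-125a-3p, the passenger strand of Mir125a, was detected in replicate 1 at all 4 of its probes, with totals from 3.09 to 3.92 times the error. In replicate 2, its 4 probes had totals from 0.990 to 2.16 times the error, and none was detected. The remaining 7 passenger strands, miR-99a-3p included, had totals of at most 0.883 times the error at every probe. When at least 50% of the spots of 1 probe had to be positive and significant, miR-99b-3p and miR-125a-3p passed on both arrays, beside 24.7% of all miRNAs.

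Other miRNAs on the array that carry a member's seed were read alongside. There were 3, each with the miR-125 seed CCCUGAG, and none with the miR-99/miR-100 seed. They are shown with the shared seed in capitals.

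miR-351-5p: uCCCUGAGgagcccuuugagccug
miR-6367: uCCCUGAGacccugguucagga
miR-6394: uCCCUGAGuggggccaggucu

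miR-6367 is identical to miR-125b-5p over the first 13 bases and then differs by A14G, A15G, C16U, U18C, G19A and U20G, counted from the 5′ end of miR-125b-5p. None of the 3 was detected on either array. The miR-6367 probes had totals from -0.618 to 0.10 times the error and those of miR-351-5p from -0.379 to 0.748 times. miR-6394 reached 1.11 times at 1 probe in replicate 2. miR-6367, which has the longest stretch shared with the miR-125 guides, had 0 spots above the highest negative control spot. Whether these 3 are present in the vesicles is unknown here, so their dim probes cannot show what the miR-125 probes bind.

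The vesicles came from medium with treated serum, and the labels describe a blood RNA kit, so 5 miRNAs known from red blood cells, liver and serum were read alongside: miR-451a, miR-144-3p, miR-144-5p, miR-486a-5p and miR-122-5p. None of the 5 was detected on either array. The highest total was that of miR-486a-5p, at 1.96 times the error, and the other 4 had totals from -0.471 to 0.941 times. Their part in the signal of the miR-125 guides was not tested. When at least 50% of spots had to be positive and significant on both arrays, 1 of the 5, miR-486a-5p, passed, beside 24.7% of all miRNAs.

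A second deposited table holds log2 values per miRNA whose making is not stated in the sources used here, so its scale is unknown. Its lowest value, -3.32, is also the median of both columns, and 15.2% of all miRNAs lay above it in both. Of the members, 4 did, and miR-99b-5p did so in replicate 1 alone. miR-125b-5p had 3.80 in replicate 1 and 3.60 in replicate 2, and miR-125a-5p had 0.44 and 1.80. miR-100-5p had -2.21 and -0.95, and miR-99a-5p, whose probe signals were centred near 0, had -2.14 and -1.14. In this table the order of the detected miR-125 guides was that of their intensities, and the miR-99/miR-100 guides lay below both.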

How the data were processed

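The authors deposited 2 Feature Extraction outputs of Agilent mouse miRNA arrays, holding for each of 58594 spots the background-subtracted fluorescence intensity, not normalized between arrays, with totals, errors and flags per probe and miRNA. The methods and file headers give version 10.7.1.1, and the submitters' processing notes give 9.1. A further table of log2 values per miRNA that the authors deposited served as an alternative.

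Of the intensities, those of control spots and of outlier-flagged spots (1178 and 1134 of 56430 miRNA spots) were left out. Signals were scaled to the 75th percentile of 393 probes that passed on each array, 0 and negative values took the lowest positive scaled value, and log2 was averaged over spots, probes and then arrays. No test was run, since 1 group of 2 arrays was analysed and their number limits the precision. Named miRNAs were the 5 members, the 3 let-7 guides and 9 passenger strands of their clusters, array miRNAs sharing a member's seed, and 5 blood and serum miRNAs. The rule for the members used names alone, but members and lists were chosen with earlier results of these data known.

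Alternatives covered the detection call, scaling, background correction, the summary of spots and probes, the deposited table, dim members and each replicate left out. Python 3.11.15, numpy 2.4.6, pandas 2.3.3, scipy 1.17.1, matplotlib 3.10.9, R 4.3.3 and limma 3.58.1 (normexp, offset 50) were used, and the computation was tested on simulated arrays. In these, all probes of a miRNA with signal were equally bright and clearly above the limit of detection, so signals near that limit were not covered. RefSeq GRCm38.p6 tables gave the sequences and positions, for all miRNAs named with a sequence.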

Additional observations from a re-analysis of the deposited data

How the results depend on the processing

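The median level of the miR-125 guides, -3.54, was -2.44 with spots averaged before the log2, 0.67 with the 75th percentile taken over all probes, -0.49 after normexp correction of the background, -0.74 for the brightest probe of each miRNA, -1.11 with the total signal per miRNA, -1.50 with only own detected probes summed and 2.41 in the deposited log2 table, and it was -7.88 over all 5 members. Their median absolute difference between arrays of 1.92 was 0.45 with spots averaged before the log2, 0.78 in the deposited table, 2.12 with the percentile over all probes, 0.0533 with normexp, 0.0278 with the brightest probe, 0.11 with the total signal and 0.18 with the own detected probes. The scaling and the table change the zero of the scale. The normexp setting adds an offset of 50 to every signal before the log2, while the brightest member spot was 70.8, and this draws levels together. In the main summary, the undetected second miR-125b-5p probe had a level of -3.01 in replicate 1 and -8.91 in replicate 2, where 4 of its spots stood at the floor. Neither 0.0533 nor 1.92 is therefore a plain measure of how alike the arrays were. Other causes were not tested. Of the members, 1 passed on both arrays with spots well above background and 0 with every probe detected, and of the passenger strands 0 passed by either rule and 2 with positive and significant spots. With either replicate left out, 2 members and 3 let-7 guides were detected, the passenger strands numbered 1 to 2, and the median level lay between -4.50 and -2.58. No paired analysis was possible because both replicate numbers belong to 1 group. Signals under 3 times their error have only an upper bound here.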

Other observations

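The total signal per miRNA that Feature Extraction wrote was not always the sum of that miRNA's own detected probes. For miR-125b-5p it was 21.0 in replicate 1, where its own detected probe gave 13.2, and the excess of 7.83 equalled the total written for miR-125a-5p, 7.83. In replicate 2, it was 17.8 against 10.1, and the excess of 7.70 again equalled the miR-125a-5p total of 7.70. For miR-125a-5p in replicate 1, the total exceeded its own detected probe by 4.62, which was the total of miR-125a-3p, 4.62. In replicate 2, the excess of miR-125a-5p was 5.11, and no probe of miR-125a-3p was detected there. The total of let-7e-5p was 13.5 times its own detected probe in replicate 1 and 8.02 times in replicate 2, and that of miR-99b-3p was 21.6 and 23.2 times. For let-7c-5p and let-7a-5p, the total equalled the sum of their own probes. The miRNA totals of miR-125a-5p, miR-125b-5p, let-7e-5p and miR-99b-3p in these files therefore hold signal beyond their own probes.

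The deposited log2 table set miR-99a-5p above its lowest value in both columns, at -2.14 and -1.14, although none of its 4 probe totals exceeded 0.0830 times the error. miR-486a-5p, with a highest probe total of 1.96 times its error, stood at the lowest value in both columns.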
